A study of Mus musculus with 9 samples.

Results

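The transcriptional response shared by a pair of indole ligands of the aryl hydrocarbon receptor (AhR) was described by pooling the ligand-treated libraries of both compounds and setting them against the controls of the same experiment. The cells were a mouse hepatoma line, given as Hepa 1 WT in the source label and as HC1C in the cell line label. The ligand arm held 6 libraries: 3 from cells given FICZ (6-formylindolo[3,2-b]carbazole) at 10 nM and 3 from cells given tryptamine at 50 uM. The control arm held 3 libraries. Together these are all 9 libraries of the series, and all were taken after 6 h. The treatment label calls the controls untreated and the treatment protocol names a vehicle, so they are called control here. All values come from 1 cell line at 1 time and 1 dose of each ligand. Whether the 3 libraries of a group came from separate cultures is not in the labels, so the p-values measure the spread between these libraries, which may be technical.

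AhR is a ligand-activated transcription factor that waits in the cytoplasm with HSP90 and other chaperones. On binding a ligand it moves to the nucleus, pairs with ARNT and binds DNA at elements with the core GCGTG. Its best known targets in liver cells are the cytochrome P450 enzymes of the CYP1 family, which oxidize aromatic compounds and clear many AhR ligands, together with conjugating and redox enzymes and the feedback inhibitors AHRR and TIPARP. FICZ is a tryptophan photoproduct that binds AhR with high affinity and is itself cleared by CYP1 enzymes. Tryptamine is the amine made from tryptophan by decarboxylation and is broken down by monoamine oxidases. The 2 ligands were given at different doses, so differences between them are differences between these doses of the compounds.

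Library totals over genes lay between 11238773 counts (control replicate 3) and 16245638 counts (FICZ replicate 2), and 11491 to 11902 genes per library had at least 10 counts. Control replicate 3 stood apart from the rest. Its correlation with the other libraries over genes (log2 CPM) was 0.954 to 0.96, while the lowest value among the other 8 was 0.987. Relative to the mean of the other 8 libraries its 1078 genes of up to 1000 nt were higher by a median of 0.672 on the log2 scale, and its 1306 genes of over 6000 nt stood at -0.832. The results are therefore given with all 9 libraries and without control replicate 3. As a check of the label, Alb was present at 212 to 285 CPM (counts per 1000000 counts of the scaled library) and Afp, a marker of fetal liver and hepatoma, at 117 to 236 CPM. Of the 20 hepatocyte genes listed, 8 had 0 counts in every library, among them Ttr, Apoa1 and Hnf4a. Several of the 12 fibroblast and stellate cell genes listed were abundant, with Vim at 2130 to 2820 CPM, Col1a1 at 909 to 1350, Dcn at 318 to 438, Col3a1 at 37.4 to 69.0 and Pdgfrb at 36.2 to 59.9, while Lum and Lrat had 0 counts. Of the bile duct genes, Krt7 was at 843 to 1370 CPM and Spp1 at 108 to 164, while Epcam and Prom1 had 0 counts. Among 12 blood and endothelial genes Lyz2 was at 11.3 to 16.5 CPM, Cd68 at 2.09 to 5.07 and Pecam1 at 0.21 to 0.974. Another 6 of these 12, among them Cd3e, Cdh5 and Tek, had 0 counts.

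The shared response held 34 genes that were higher and 7 that were lower with ligand once control replicate 3 was left out. The genes that were higher include the 3 CYP1 genes tested, Arhgap10 and enzymes of redox, aldehyde and purine metabolism. In all 9 libraries, Cyp1a1 alone was higher with ligand among 11987 genes tested (0.00834% of them) and 0 genes were lower (0.0%), by edgeR's quasi-likelihood test with Benjamini-Hochberg adjusted p under 0.05. An unadjusted p under 0.05 was reached by 550 higher (4.59%) and 832 lower genes (6.94%), and DESeq2 called 44 higher and 13 lower. Without control replicate 3 there were 34 higher genes among 12151 tested (0.28%) and 7 lower genes (0.0576%) by the same test. An unadjusted p under 0.05 was then reached by 558 higher (4.59%) and 490 lower genes (4.03%). DESeq2 called 49 and 12, with 30 of the 34 higher and 4 of the 7 lower genes among them. It did not call Aldh3a1, Cpox, Tbc1d16 and Xdh, with Wald test adjusted p of 0.242, 0.0520, 0.271 and 0.0687. In what follows, rose and fell are used of these 34 and 7 genes in the 8-library fit, and "all 9 libraries" marks the fit with control replicate 3. Changes are log2 ligand minus control. Of the 34 rises, 13 were at most 0.5, 14 lay between 0.5 and 1, and 7 were above 1. The spread between libraries of an arm, as a biological coefficient of variation, was 0.148 with control replicate 3 and 0.0763 without it. The 2 remaining controls carry much of the 8-library result. Leaving out control replicate 1 as well left 5 rises (Adh7, Cyp1a1, Cyp1b1, Nqo1 and Tnxb) and 3 falls, and leaving out control replicate 2 left 19 rises, 10 of them among the 34, and 9 falls, 1 of them among the 7. Each of those fits has 1 control and takes its spread from the ligand libraries. Without tryptamine replicate 3 there were 63 rises, all of the 34 among them, and 16 falls, and without tryptamine replicate 2 there were 17 falls. Without FICZ replicate 1 or FICZ replicate 3 there were 4 falls. Summing all transcripts of a gene in place of taking the highest one left 4 rises (Arhgap10, Cyp1a1, Cyp1b1 and Tnxb) and 1 fall (Loxl4).

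**Figure D1:**
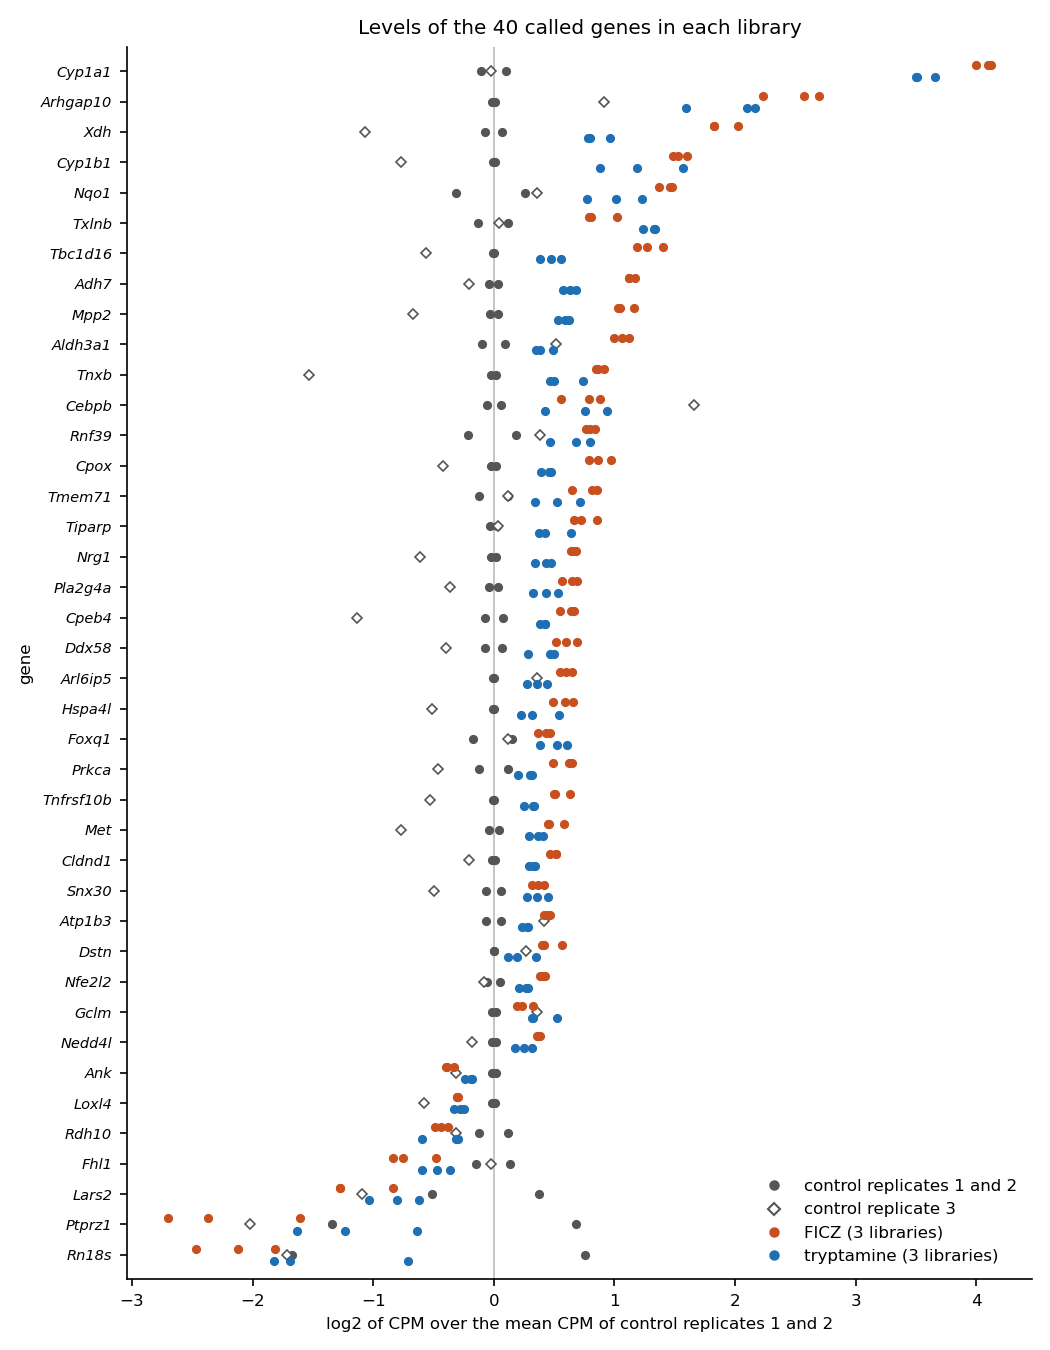
Level of each gene that rose or fell without control replicate 3, as log2 of its CPM over the mean CPM of control replicates 1 and 2 (x axis), with 1 line per gene (y axis) and 1 point per library: filled grey for control replicates 1 and 2, open diamonds for control replicate 3, orange for FICZ and blue for tryptamine. Cyp1a2 is left out because its controls have 0 counts. In all 34 genes that rose the 6 ligand libraries lie above control replicates 1 and 2, as in 5.03% of all tested genes. Rn18s and Ptprz1 are the 2 falls in which the ligand libraries do not all lie below those controls, as they do in 5.08%. The genes were called from the ligand libraries and these 2 controls, so the separation adds no support of its own.

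Cyp1a1, the AhR target that oxidizes polycyclic aromatic compounds, had 65.7, 57.0 and 60.3 CPM in control replicates 1 to 3, 1051, 1067 and 978 with FICZ, and 694, 699 and 774 with tryptamine. All 6 ligand libraries were far above every control, with no overlap, and the 3 FICZ libraries were above the 3 tryptamine libraries. The change was 3.84 ± 0.15 (SE), adjusted p = 7.08e-16, a 14.3-fold rise, and 3.85 ± 0.18 (SE), adjusted p = 6.79e-07 with all 9 libraries. In bulk RNA a higher level per cell and a larger share of cells expressing a gene cannot be told apart. Cyp1a1 passed in each of the 19 alternatives tried with all 9 libraries. Cyp1a2, the neighbouring paralog that is a main P450 of adult liver, was barely detected in controls. It had 0 counts in control replicates 1 and 2 and 1 count in control replicate 3. The FICZ libraries had 32, 20 and 11 counts (63 in sum) and the tryptamine libraries 17, 25 and 9 (51 in sum), all above the controls. Against control replicates 1 and 2 the pooled level was at least 12.6-fold higher, with 3 counts over the group as the floor. Against all 3 controls the ratio was 52.7, with an exact 95% counting interval of 9.27 to 2100.0 that covers counting error only. Its rise passed without control replicate 3 (adjusted p = 0.00599) and did not pass with all 9 libraries (adjusted p = 0.166). No source used here says how reads shared by Cyp1a1 and Cyp1a2 were counted, so the low Cyp1a2 counts are uncertain. Cyp1b1, the family member that also hydroxylates estrogens, had 5.15, 5.10 and 3.0 CPM in control replicates 1 to 3, 15.6, 14.8 and 14.3 with FICZ, and 11.7, 9.43 and 15.2 with tryptamine. Its groups did not overlap, and control replicate 3 was the lowest of the 9. The change was 1.40 ± 0.19 (SE), adjusted p = 3.03e-04, and 1.60 ± 0.22 (SE), adjusted p = 0.0517, with all 9 libraries, just outside the threshold.

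Of the feedback inhibitors, Tiparp rose and Ahrr was too low to test. Tiparp, a mono-ADP-ribosyltransferase that limits AhR activity, had 33.4, 34.8 and 35.0 CPM in control replicates 1 to 3, 53.9, 56.3 and 61.7 with FICZ, and 44.3, 45.7 and 53.0 with tryptamine. All ligand libraries were above all 3 controls, which lay close together. Tiparp rose by 0.62 ± 0.11 (SE), adjusted p = 0.00391, with adjusted p = 0.166 in all 9 libraries. Ahrr, the AhR repressor, had 1 count in all 9 libraries together and was not tested, so no change was detectable at this depth. The receptor itself and its partner did not pass. Ahr had a log2 change of -0.20 (adjusted p = 0.677) and Arnt of 0.02 (adjusted p = 0.964). The 16 tested members of the receptor complex and its cofactors had 0 rises and 0 falls, with 9 of 16 above 0 and a median of 0.02. Over all 12151 genes 50.3% were above 0 and the median was 0.001.

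Upstream of Cyp1a1, Cyp1b1, the feedback gene Tiparp and the heme enzyme gene Cpox, the AhR core GCGTG occurs once in each window of 250 bases before the RefSeq transcription start (GRCm38.p6). These 4 are shown as examples from the 15 genes that rose with ligand and hold a match. Capitals mark the match, read on either strand. The windows are chr9:57697363-57697612, + strand for Cyp1a1, chr17:79715062-79715311, - strand for Cyp1b1, chr3:65528197-65528446, + strand for Tiparp and chr16:58669958-58670207, + strand for Cpox. Relative to the start, the first base of the match lies at -54 in Cyp1a1, -76 in Cyp1b1, -170 in Tiparp and -39 in Cpox.
Cyp1a1: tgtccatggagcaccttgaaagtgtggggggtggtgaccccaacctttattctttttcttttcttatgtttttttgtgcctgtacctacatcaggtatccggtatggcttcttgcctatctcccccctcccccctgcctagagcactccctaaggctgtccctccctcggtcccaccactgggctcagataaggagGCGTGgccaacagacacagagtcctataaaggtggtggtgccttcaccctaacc
Cyp1b1: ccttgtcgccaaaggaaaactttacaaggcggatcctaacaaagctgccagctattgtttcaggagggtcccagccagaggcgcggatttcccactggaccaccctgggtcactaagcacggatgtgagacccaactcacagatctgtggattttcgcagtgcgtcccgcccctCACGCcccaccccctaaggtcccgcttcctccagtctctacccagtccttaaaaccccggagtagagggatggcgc
Tiparp: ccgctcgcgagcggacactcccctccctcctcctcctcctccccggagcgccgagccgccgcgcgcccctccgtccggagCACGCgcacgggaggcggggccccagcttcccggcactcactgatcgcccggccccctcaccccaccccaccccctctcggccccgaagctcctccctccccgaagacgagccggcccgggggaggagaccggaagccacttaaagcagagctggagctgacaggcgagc
Cpox: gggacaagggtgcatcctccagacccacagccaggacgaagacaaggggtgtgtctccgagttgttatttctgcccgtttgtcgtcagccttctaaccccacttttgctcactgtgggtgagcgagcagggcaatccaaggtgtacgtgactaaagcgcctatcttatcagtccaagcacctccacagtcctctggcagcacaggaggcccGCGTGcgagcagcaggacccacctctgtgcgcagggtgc
A promoter was matched for 23 of the 34 genes that rose, some with more than 1 start. GCGTG, searched on both strands, was in 57.7% of their 26 windows, in 44.7% of the 11440 windows of tested genes and in 28.2% of all 32851 windows in the table. The antioxidant response element TGANNNNGC was in 34.6%, 36.5% and 35.2% of the same sets. Of the 23 genes, 15 had a window with GCGTG, beside 4505 of the 8913 tested genes with a matched promoter. Of the 6 windows of genes that fell, 2 held GCGTG. Cyp1a2, Nqo1, Adh7 and Tnxb had no GCGTG in this window, which says only that these letters are not there. These matches are counts of letters and were not tested for binding.

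Enzymes of redox, aldehyde, purine and heme metabolism were among the genes that rose, and of these Nqo1 and Adh7 passed in all 8 leave-outs of a further library. Nqo1, a quinone reductase controlled by both AhR and NRF2, had 34.2, 23.1 and 36.7 CPM in control replicates 1 to 3, 78.7, 79.6 and 73.8 with FICZ, and 57.8, 48.8 and 67.0 with tryptamine. Ligand libraries were above all controls without overlap, and the controls themselves ranged widely. Nqo1 rose by 1.24 ± 0.15 (SE), adjusted p = 6.49e-05, a 2.36-fold change. Nfe2l2, which encodes NRF2, the regulator of antioxidant genes, had 233, 216 and 211 CPM in control replicates 1 to 3 and 259 to 300.2 (median 283) in the 6 ligand libraries, without overlap, and rose by 0.33 ± 0.06 (adjusted p = 0.0114). Gclm, the modifier subunit of the enzyme that starts glutathione synthesis, had 131, 134 and 169 CPM in control replicates 1 to 3 and 151 to 189.8 (median 165) in the 6 ligand libraries. Control replicate 3 lay within the ligand range of Gclm, and the change was 0.32 ± 0.07 (adjusted p = 0.0484). Aldh3a1, an aldehyde dehydrogenase of the AhR battery, had 67.4, 59.0 and 90.6 CPM in control replicates 1 to 3, 132, 137 and 126 with FICZ, and 80.6, 82.6 and 88.9 with tryptamine. Control replicate 3 was above all 3 tryptamine libraries, so the arms overlap once it is included. Aldh3a1 rose by 0.77 ± 0.15 (adjusted p = 0.0151), and had 0.58 ± 0.20 (adjusted p = 0.419) with all 9 libraries. Adh7, an alcohol dehydrogenase that also oxidizes retinol, had 67.0, 63.7 and 56.7 CPM in control replicates 1 to 3, 147, 142 and 142 with FICZ, and 101, 97.3 and 105 with tryptamine. Its 6 ligand libraries were above all 3 controls and the FICZ libraries were the highest. Adh7 rose by 0.91 ± 0.13 (adjusted p = 3.64e-04). Xdh, xanthine dehydrogenase, which makes uric acid from purines, had 25.1, 22.7 and 11.4 CPM in control replicates 1 to 3, 97.3, 84.6 and 84.7 with FICZ, and 46.7, 41.1 and 41.6 with tryptamine. Every FICZ library was above every tryptamine library, all 6 were above the controls, and control replicate 3 was the lowest of all. Xdh rose by 1.47 ± 0.25 (adjusted p = 0.00298), a 2.76-fold change. Cpox, coproporphyrinogen oxidase of the heme pathway, had 139.6, 144 and 106 CPM in control replicates 1 to 3 and 186 to 277 (median 220.4) in the 6 ligand libraries, without overlap, and rose by 0.67 ± 0.11 (adjusted p = 0.00228).

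Lists of related genes put these enzymes beside all 12151 genes, of which 0.28% rose, 50.3% were above 0 and the median was 0.001. Of 11 tested AhR targets, 8 rose (Cyp1a1, Cyp1a2, Cyp1b1, Tiparp, Nqo1, Aldh3a1, Xdh and Nfe2l2), 10 were above 0 and the median was 0.77. Control replicate 3 included, 1 of 11 rose, 11 were above 0 and the median was 0.69. The members that did not pass were Cyp2s1 at 0.60 (adjusted p = 0.125), Ugt1a2 at 0.70 (adjusted p = 0.151) and Slc7a5 at -0.0017 (adjusted p = 0.996). Of 18 tested NRF2 targets, Nqo1 and Gclm rose, 16 were above 0 and the median was 0.18. Gclc, the catalytic partner of Gclm, was at 0.27 (adjusted p = 0.137), the cystine transporter Slc7a11 at 0.53 (adjusted p = 0.239), thioredoxin reductase Txnrd1 at 0.17 (adjusted p = 0.250) and heme oxygenase Hmox1 at 0.46 (adjusted p = 0.333). Including control replicate 3, 0 of 18 rose and 12 were above 0. Of 12 alcohol and aldehyde dehydrogenases Adh7 and Aldh3a1 rose, and 5 of 12 were above 0 with a median of -0.06. Of 14 genes of heme synthesis and breakdown Cpox rose and 10 were above 0 with a median of 0.03. Phase II conjugation genes had 0 rises of 16, with a median of 0.04. The monoamine and tryptophan list had 0 rises and 0 falls among 4 tested genes. Maoa, the monoamine oxidase that degrades tryptamine, was at -0.23 (adjusted p = 0.367), and Maob had 3 counts in all 9 libraries.

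Other genes that rose encode regulators of small GTPases, a scaffold and a matrix protein. Arhgap10, a GTPase-activating protein, had 0.696, 0.708 and 1.32 CPM in control replicates 1 to 3, 4.17, 4.54 and 3.30 with FICZ, and 3.15, 3.01 and 2.12 with tryptamine. All ligand libraries were above all controls, from low counts. Arhgap10 rose by 2.26 ± 0.39 (adjusted p = 0.00342). Tbc1d16, which acts on Rab GTPases, had 52.2, 51.8 and 35.2 CPM in control replicates 1 to 3, 126, 138 and 118 with FICZ, and 76.6, 72.1 and 67.7 with tryptamine. FICZ libraries were the highest and control replicate 3 the lowest. Tbc1d16 rose by 0.94 ± 0.19 (adjusted p = 0.0153). Mpp2, a membrane scaffold of the guanylate kinase family, had 20.6, 21.6 and 13.2 CPM in control replicates 1 to 3 and 30.5 to 47.3 (median 37.8) in the 6 ligand libraries, without overlap, and rose by 0.85 ± 0.15 (adjusted p = 0.00298). Txlnb, a taxilin family gene with low counts, had 2.51, 2.97 and 2.83 CPM in control replicates 1 to 3 and 4.73 to 6.90 (median 6.00) in the 6 ligand libraries, without overlap, and rose by 1.10 ± 0.25 (adjusted p = 0.0441). Tnxb, the extracellular matrix protein tenascin X, has the longest transcript of the set at 12345 nt. Its levels were 116, 119 and 40.7 CPM in control replicates 1 to 3 and 162 to 222 (median 204) in the 6 ligand libraries. Control replicate 3 of Tnxb was far below the other controls. Tnxb rose by 0.73 ± 0.09 (adjusted p = 1.18e-04) and had 1.08 ± 0.27 (adjusted p = 0.389) with all 9 libraries. Tnxb, Cyp1a1 and Cyp1b1 were the 3 genes that passed in all 18 alternatives tried without control replicate 3.

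Receptors, ligands and signalling enzymes among the genes that rose had smaller changes. Met, the receptor for hepatocyte growth factor, had 264, 279.8 and 159.6 CPM in control replicates 1 to 3 and 332 to 406 (median 365) in the 6 ligand libraries, without overlap, and rose by 0.43 ± 0.06 (adjusted p = 0.00107). Nrg1, a ligand of ErbB receptors, had 65.4, 63.5 and 42.1 CPM in control replicates 1 to 3 and 81.6 to 103 (median 94.9) in the 6 ligand libraries, again without overlap, and rose by 0.54 ± 0.09 (adjusted p = 0.00228). They were the 2 rises among 12 tested growth factor receptors and ligands, of which 6 were above 0 with a median of -0.02. Pla2g4a, the phospholipase that releases arachidonic acid, rose by 0.54 ± 0.09 (adjusted p = 0.00298). Prkca, protein kinase C alpha, rose by 0.44 ± 0.10 (adjusted p = 0.0480). Nedd4l, a ubiquitin ligase that removes sodium channels from the membrane, rose by 0.31 ± 0.07 (adjusted p = 0.0294). Tnfrsf10b, a death receptor for TRAIL, rose by 0.43 ± 0.09 (adjusted p = 0.0243), and Ddx58, the cytoplasmic RNA sensor RIG-I, by 0.51 ± 0.09 (adjusted p = 0.00338). Levels of these 5 genes in the 6 ligand libraries were above all 3 controls, as in 2.65% of all genes tested. Offsets for each library's trend with transcript length were also tried with all 9 libraries, by edgeR's quasi-likelihood test. Nedd4l was then at 0.05 (adjusted p = 0.912), Prkca at 0.285 (adjusted p = 0.389) and Tnfrsf10b at 0.58 (adjusted p = 0.0864). Pla2g4a was at 0.66 (adjusted p = 0.0307) and Ddx58 at 0.51 (adjusted p = 0.0299).

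Cebpb, a transcription factor of liver and inflammation, was the only gene of the 34 whose sign turned with control replicate 3. Its levels were 10.8, 11.7 and 35.5 CPM in control replicates 1 to 3, 19.5, 16.6 and 20.7 with FICZ, and 21.5, 18.9 and 15.1 with tryptamine. Control replicate 3 was the highest of the 9 libraries, while control replicates 1 and 2 were the lowest. Cebpb rose by 0.73 ± 0.15 (adjusted p = 0.0151), and with all 9 libraries the value was -0.03 ± 0.31 (adjusted p = 0.966). Foxq1, a forkhead factor, rose by 0.47 ± 0.09 (adjusted p = 0.0116), Cpeb4, an RNA-binding regulator of translation, by 0.52 ± 0.09 (adjusted p = 0.00298), and Hspa4l, a chaperone of the HSP110 family, by 0.48 ± 0.09 (adjusted p = 0.00398). The remaining 7 genes that rose were Arl6ip5, Atp1b3 (a sodium pump subunit), Cldnd1, Dstn (an actin-depolymerizing protein), Rnf39, Snx30 (a sorting nexin) and Tmem71. Their changes lay between 0.35 and 0.73.

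Of the 7 falls, 0 passed by edgeR in both fits that left out a further control, and 3 passed without control replicate 1 (Rn18s, Lars2 and Ptprz1) and 1 without control replicate 2 (Fhl1). In Fhl1, Rdh10, Loxl4 and Ank all ligand libraries were below control replicates 1 and 2, as in 5.08% of all genes tested. Fhl1, a LIM domain protein of muscle and cytoskeleton, had 36.7, 30.2 and 32.9 CPM in control replicates 1 to 3, 19.8, 24.0 and 18.8 with FICZ, and 26.0, 24.2 and 22.1 with tryptamine. It was the only one of the 7 in which control replicate 3 was also above all ligand libraries. Fhl1 fell by 0.58 ± 0.12 (adjusted p = 0.0221), and without control replicate 1 it was at -0.42 (adjusted p = 1.00). Loxl4, a collagen cross-linking oxidase, had 341, 347 and 231 CPM in control replicates 1 to 3, 280.1, 278 and 278 with FICZ, and 274, 282 and 289 with tryptamine, and control replicate 3 was below every ligand library. Loxl4 changed by -0.29 ± 0.05 (adjusted p = 0.00401), and was at -0.30 (adjusted p = 0.187) without control replicate 1 and -0.28 (adjusted p = 0.127) without control replicate 2. Rdh10, which oxidizes retinol to retinal, changed by -0.42 ± 0.09 (adjusted p = 0.0380), and was at -0.29 (adjusted p = 1.00) without control replicate 1 and -0.53 (adjusted p = 0.0507) without control replicate 2. Ank, a pyrophosphate transporter, changed by -0.29 ± 0.06 (adjusted p = 0.0321), and was at -0.30 (adjusted p = 0.486) without control replicate 1 and -0.27 (adjusted p = 0.258) without control replicate 2. In Rn18s, Lars2 and Ptprz1 control replicate 2 was the highest library. Rn18s, the 18S ribosomal RNA, had 356, 1910.4 and 345 CPM in control replicates 1 to 3, 261, 322 and 205 with FICZ, and 693, 352 and 320.3 with tryptamine. The ligand libraries of Rn18s overlapped control replicate 1. Its change was -1.66 ± 0.32 (adjusted p = 0.00962), and without control replicate 2 it was 0.01 (adjusted p = 0.996). Lars2, mitochondrial leucyl-tRNA synthetase, had 76.3, 141 and 50.9 CPM in control replicates 1 to 3, 44.9, 60.9 and 45.0 with FICZ, and 70.5, 52.9 and 62.4 with tryptamine. Lars2 changed by -0.95 ± 0.15 (adjusted p = 0.00126), and without control replicate 2 it was at -0.44 (adjusted p = 0.343). Its ligand libraries were below control replicates 1 and 2, and control replicate 3 lay within their range. Ptprz1, here a row of 337 nt, had 5.22, 21.3 and 3.27 CPM in control replicates 1 to 3, 2.56, 4.36 and 2.04 with FICZ, and 8.54, 4.28 and 5.63 with tryptamine. The ligand libraries of Ptprz1 overlapped control replicates 1 and 3. Ptprz1 changed by -1.53 ± 0.35 (adjusted p = 0.0486), and without control replicate 2 it was at -0.19 (adjusted p = 0.941).

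Control replicate 3 took no part in choosing the 34 and 7 genes, so its levels can be set beside them. In 28 of the 34 genes that rose it was below all 6 ligand libraries, as were control replicates 1 and 2. Over all 12151 genes it was below all ligand libraries in 36.7%, and in 53.0% of the 611 genes (5.03%) whose control replicates 1 and 2 were both below them. It lay within the ligand range in Aldh3a1, Arl6ip5, Atp1b3, Dstn and Gclm, and above it in Cebpb. Transcripts of the 28 genes had a median length of 3728 nt and those of the other 6 a median of 1781 nt, and length moved with control replicate 3 across all genes. Of the 7 genes that fell, control replicate 3 was above all ligand libraries in 1 (36.2% of all genes, and 45.4% of the 617 genes, 5.08%, whose control replicates 1 and 2 were both above them). In the full set of 9 libraries 318 genes (2.65%) had every ligand library above every control and 280 (2.34%) below. All but Cebpb of the 34 kept a change above 0 in the 9-library fit (49.6% of all genes), and 30 of the 33 other than Cyp1a1 had an unadjusted p under 0.05, with adjusted p from 0.0517 (Cyp1b1) to 0.966 (Cebpb). The 7 falls had changes below 0 and adjusted p from 0.265 to 0.576, with 4 at an unadjusted p under 0.05. The 9-library fit holds all the libraries that chose these genes. The kept signs and small p-values in it therefore add no support of their own.

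**Figure D2:**
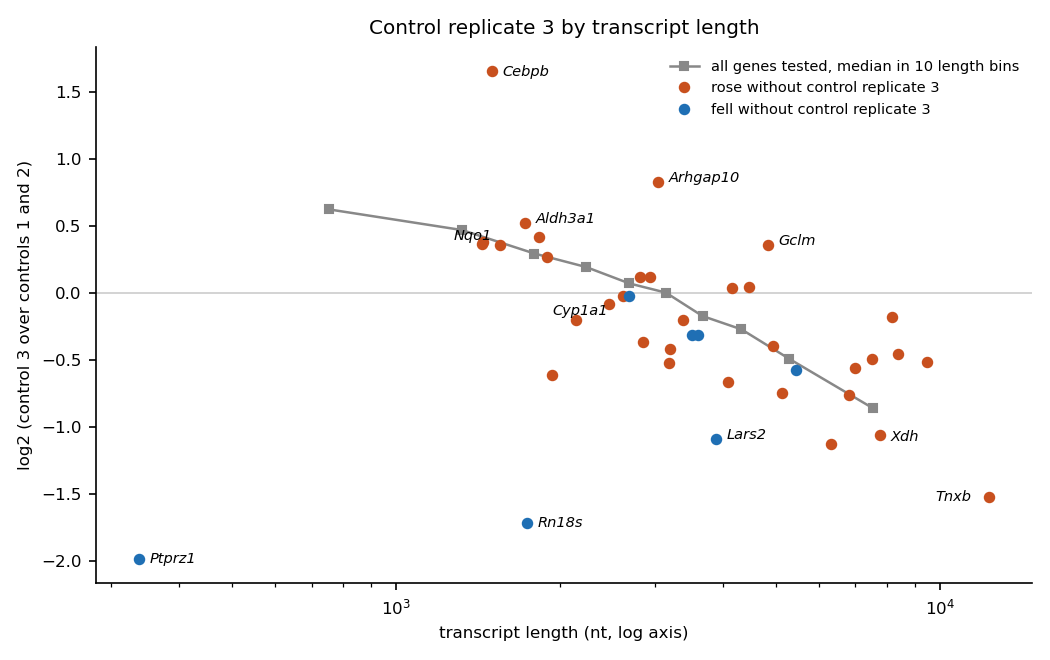
Log2 of control replicate 3 over control replicates 1 and 2 (y axis) against transcript length in nt (x axis, log scale), with grey squares for the median of all tested genes in 10 length bins and points for the genes that rose (orange) or fell (blue) without control replicate 3. The medians go from 0.62 in the shortest bin to -0.86 in the longest, and Cebpb and Rn18s lie far from the line.

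Transcript length also moved with the pooled change when control replicate 3 was included. In the shortest of 10 length bins (median 752 nt) the median change over all genes was -0.25 with all 9 libraries, and in the longest bin (median 7532 nt) it was 0.23. Without control replicate 3 the same bins had -0.01 and 0.01. Offsets that remove each library's trend with length gave 15 rises with all 9 libraries, and all 15 were among the 34. They were Adh7, Arhgap10, Arl6ip5, Cldnd1, Cpeb4, Cpox, Cyp1a1, Cyp1a2, Cyp1b1, Ddx58, Met, Mpp2, Nqo1, Pla2g4a and Tnxb. Giving control replicate 3 a low weight in place of leaving it out (0.0837 against 0.847 to 1.73 for the other libraries, voom with quality weights) gave 33 rises, of which 32 were among the 34. At so low a weight this fit is close to leaving the library out, so the overlap is no separate support. The lists of ribosomal protein and respiratory chain genes moved as a whole with control replicate 3. Of 22 tested cytosolic ribosomal protein genes 0 were above 0 with all 9 libraries (median -0.31) and 8 were above 0 without control replicate 3 (median -0.05). Their summed level was 9320.81 to 15298.04 CPM in controls, 8828.58 to 9263.45 with FICZ and 8921.3 to 9160.01 with tryptamine. Of 21 respiratory chain genes 0 were above 0 with all 9 libraries (median -0.39) and 6 without control replicate 3 (median -0.04). In both lists 0 genes rose or fell.

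Pooling hides how far each ligand carried the change, so both were set against the same controls, which they share. Without control replicate 3, 72 genes were higher (0.593%) and 29 lower (0.239%) with FICZ, and 23 were higher (0.189%) and 2 lower (0.0165%) with tryptamine. When control replicate 3 was kept, 14 genes were higher with FICZ (0.117%) and 1 with tryptamine (0.00834%), and 0 were lower with either by edgeR, with 555 and 364 lower at an unadjusted p under 0.05. Of the 34 pooled rises, 20 passed for each ligand separately, 11 for FICZ only, 2 (Gclm and Txlnb) for tryptamine only and Snx30 for neither. The 34 include 31 of the 72 FICZ rises (43.1%) and 22 of the 23 tryptamine rises (95.7%). The pooled and single-ligand tests use the same libraries and controls. These overlaps are therefore partly fixed in advance and do not measure how far the 2 responses are shared. Passing for 1 ligand and not the other is not a difference between them, which was tested directly. Of the falls, Lars2 and Loxl4 passed for each ligand and the other 5 for FICZ only.

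The difference FICZ minus tryptamine was above 0 in 31 of the 34 genes, with a median of 0.24 log2, beside 50.3% of all genes and a median of 0.001. Gclm, Foxq1 and Txlnb were the exceptions. In the fit without control replicate 3, the difference passed in 7 of the 34 (15 genes higher with FICZ among all tested, 0.123%, and 2 lower, 0.0165%). Xdh had 1.89 with FICZ and 0.85 with tryptamine, a difference of 1.04 ± 0.09 (adjusted p = 1.31e-07). Tbc1d16 had 1.29 with FICZ and 0.47 with tryptamine, a difference of 0.821 ± 0.08 (adjusted p = 4.95e-07). Aldh3a1 had 1.06 with FICZ and 0.41 with tryptamine, and the difference was 0.650 ± 0.07 (adjusted p = 1.12e-05). For Cyp1a1 the values were 4.07 with FICZ and 3.56 with tryptamine and the difference was 0.516 ± 0.06 (adjusted p = 1.12e-05). Adh7 differed by 0.510 ± 0.07 (adjusted p = 1.25e-04), Mpp2 by 0.504 ± 0.09 (adjusted p = 0.0125) and Cpox by 0.436 ± 0.06 (adjusted p = 3.39e-04). In each of these 7 genes the 3 FICZ libraries were above the 3 tryptamine libraries. The genes were chosen by this difference in the same libraries, so the separation adds no support of its own. The same 7 passed when the 6 ligand libraries were fitted alone (16 genes higher and 1 lower), and 0 of the 34 passed by edgeR with all 9 libraries, where 11 of them were higher and 1 lower with FICZ at an unadjusted p under 0.05. For Cyp1b1 the difference was 0.295 ± 0.16 (adjusted p = 0.867) with a 95% interval of -0.03 to 0.62, and for Tiparp 0.265 ± 0.09 (adjusted p = 0.593) with an interval of 0.08 to 0.45. Nearest to 0 among the genes that rose were Snx30, at 0.00460 ± 0.08 (adjusted p = 0.999), and Cebpb, at 0.0302 ± 0.14 (adjusted p = 0.997). Of the 7 falls, all 7 had a difference below 0 (49.7% of all genes), with a median of -0.20, and 0 passed by edgeR (3 at an unadjusted p under 0.05).

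**Figure D3:**
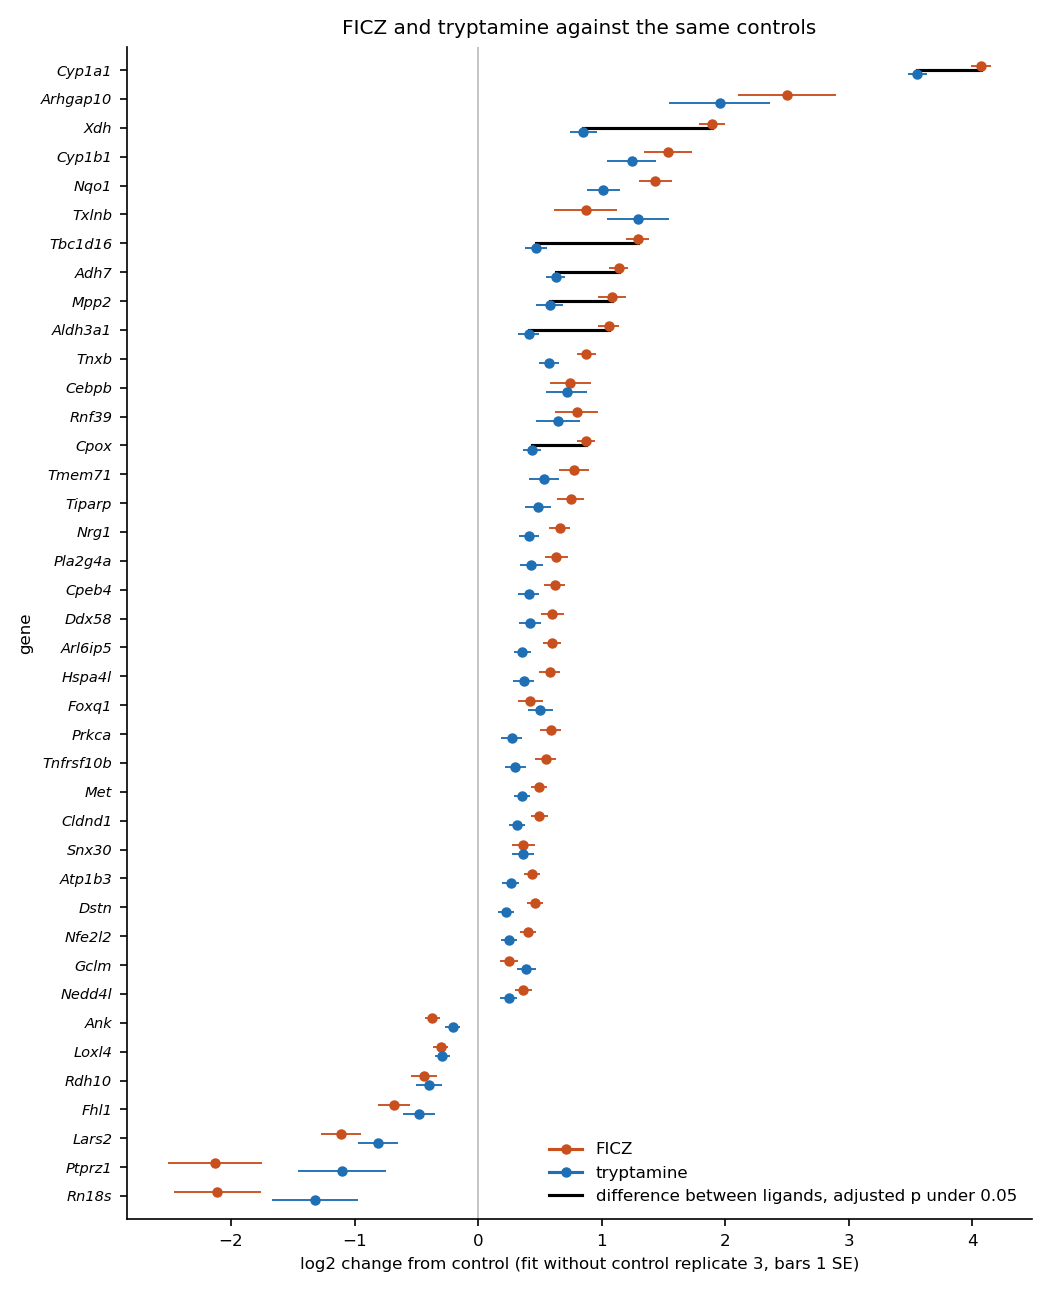
Log2 change from control with FICZ (orange) and with tryptamine (blue) for each gene that rose or fell in the pooled comparison (y axis), in the 3-group fit without control replicate 3. Points are estimates, bars are 1 SE and black lines mark the 7 genes whose difference between the ligands had an adjusted p under 0.05; Cyp1a2 is left out. FICZ lies to the right of tryptamine in most genes that rose, and Txlnb, Foxq1 and Gclm lie the other way.

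In 19 of the 24 lists 0 genes rose or fell without control replicate 3 by edgeR, beside 0.28% that rose and 0.0576% that fell over all genes. At those rates 0 calls among the 255 genes tested in these lists says little about their pathways. Of these 255 genes an unadjusted p under 0.05 was reached by 23 with higher and 19 with lower levels. Both shares are above the 4.59% and 4.03% of all genes. Beside those already described, the pathways with 0 calls included cholesterol synthesis, fatty acid metabolism, the cell cycle, ER stress and the amino acid response, hypoxia and glycolysis, the circadian clock, immediate early genes, inflammatory genes and polyamine synthesis. In cholesterol synthesis 10 of 18 genes were above 0 in the pooled comparison (median 0.02), while FICZ minus tryptamine was above 0 in 1 of 18 (median -0.23, against 0.001 over all genes). Members of these lists did not pass in the test as reported, and for some the outcome changed with the setting. Plin2, which coats lipid droplets, was at -0.26 (adjusted p = 0.0581), Tnfaip2 at 1.23 (adjusted p = 0.0665), Fosl1, a partner of JUN, at 0.37 (adjusted p = 0.0832), and Odc1, the first enzyme of polyamine synthesis, at -0.26 (adjusted p = 0.125). Without control replicate 3, DESeq2 called Plin2 lower and Tnfaip2 and Fosl1 higher. The 3-group fit called Plin2 and Odc1 lower and Tnfaip2 higher, and quality weights called Plin2 and Odc1 lower and Fosl1 higher. Plin2 was also called lower with upper quartile scaling, no filter, the replicate block and length offsets. Odc1 was also called lower with no filter, and Fosl1 higher with length offsets. None of these genes passed with sums over transcripts, with DESeq2's size factors in edgeR or with at least 10 counts in every library of an arm. Gbp2, an interferon-induced GTPase, was at 1.58 (adjusted p = 0.465), with 3.37 to 5.62 CPM in the FICZ libraries and 0.53 to 1.66 in the tryptamine libraries.

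**Figure D4:**
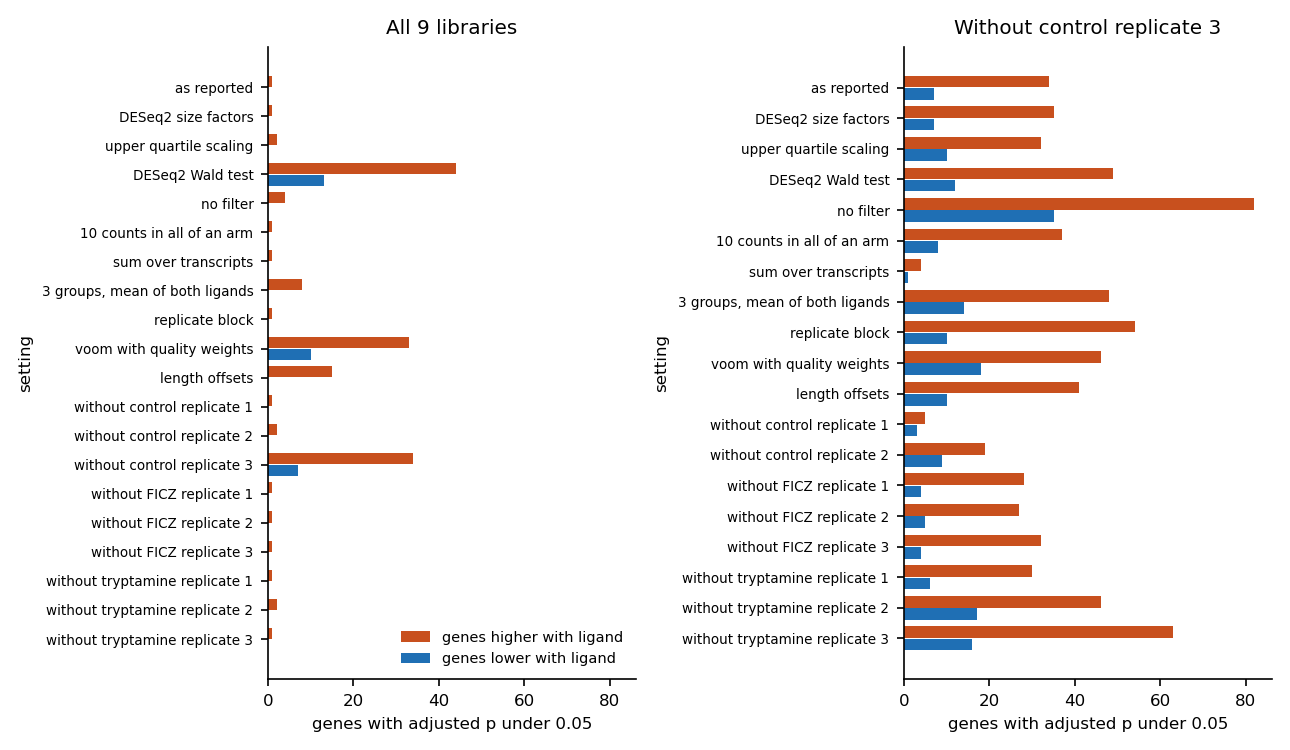
Number of genes higher (orange) and lower (blue) with ligand at an adjusted p under 0.05 (x axis) under each alternative setting (y axis), with all 9 libraries (left) and without control replicate 3 (right). With all 9 libraries there are 44 higher and 13 lower genes by the DESeq2 Wald test, 33 and 10 with quality weights, 34 and 7 without control replicate 3, 15 and 0 with length offsets, 8 and 0 with 3 groups, and at most 4 and 0 under the other settings.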

How the data were processed

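RNA sequencing counts of 9 libraries (3 control, 3 FICZ, 3 tryptamine) were used. Per the file headers, the deposited tables hold whole-number counts of reads per transcript and, as another quantity, the transcript's length in nt. DESeq is named, with no version, per the submitters' processing notes. No source used here gives the aligner, the counting rule, strand use or the genome build, so reads of overlapping antisense genes cannot be told apart. A further 18 columns of normalized values per library in the deposited tables were not used. The tables list 189660 transcripts, and all 9 count columns that occur in more than 1 table were identical.

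For each of 28250 gene IDs the transcript with the highest mean count over the 9 libraries was taken, since counts summed over transcripts came to 5.5 to 5.73 times this total. Left out were 27781 transcripts that lack a gene ID, with 4.37 to 5.0% of each library's counts. The depth was 11238773 to 16245638 counts per library, and the depth, with the number of libraries, sets the precision of each value.

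Genes passing edgeR's filterByExpr were scaled with TMM (factors 0.993 to 1.01) and tested with edgeR's quasi-likelihood test (edgeR 4.0.16, R 4.3.3) in a model of ligand against control, with Benjamini-Hochberg adjustment over all tested genes and a threshold of 0.05. CPM are counts per 1000000 counts of the TMM-scaled library. A 3-group model gave each ligand against control and the ligands against each other. Intervals are 95%. Alternatives were DESeq2 1.42.0, limma 3.58.1 (voom with quality weights), other scalings and filters, sums over transcripts, a term for replicate number, length offsets and leaving out each library. On simulated counts with 200 changed genes, the 9-library test recovered 92% of genes changed by a log2 of 1. The simulation gave every gene the same spread and left out the length trend of control replicate 3. This share therefore does not measure how many such changes the 9-library fit finds in these libraries.

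Named genes were up to 10 with the largest rise and up to 10 with the largest fall in each fit (adjusted p under 0.05, at least 20 counts on average in the higher arm, no overlap of the arms), 13 genes of the pathway always named, and up to 3 members of each of 24 gene lists with the smallest p in the 9-library fit. The genes that rose or fell outside this rule (Arl6ip5, Atp1b3, Cebpb, Cldnd1, Cpeb4, Ddx58, Dstn, Foxq1, Gclm, Hspa4l, Nedd4l, Nfe2l2, Pla2g4a, Prkca, Ptprz1, Rn18s, Rnf39, Snx30, Tmem71, Tnfrsf10b and Tnxb) and Cyp2s1, Slc7a5, Txnrd1 and Gpr15 were named after seeing their values. The members and the gene lists were chosen with earlier results of these data known, so list counts are descriptions. Upstream sequences are from RefSeq (GRCm38.p6), matched by gene symbol or ID.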

Additional observations from a re-analysis of the deposited data

Results flagged for a closer look

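In the ligand arm, Rn18s in tryptamine replicate 1 stood far above the other 5 ligand libraries, at 693.1 CPM, with a gap to the next library of 0.698 of the whole range, above the 95% critical value of Dixon's test. Of the 41 genes that rose or fell this was the only one with such a library, and chance gives about 1 in 20.

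For 7 of the pooled rises the difference FICZ minus tryptamine had an adjusted p under 0.05 (edgeR's quasi-likelihood test without control replicate 3, log2). The differences were 1.04 for Xdh, 0.821 for Tbc1d16, 0.65 for Aldh3a1, 0.516 for Cyp1a1, 0.51 for Adh7, 0.504 for Mpp2 and 0.436 for Cpox. In the 9-library fit 0 of them passed by edgeR and all 7 had an unadjusted p under 0.05, and the doses of the ligands differ.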

How the results depend on the processing

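Control replicate 3 decided most counts. Leaving out each library in turn gave 1 to 34 higher and 0 to 7 lower genes with all 9 libraries, and 5 to 63 higher and 3 to 17 lower genes once control replicate 3 was left out. In all 9 libraries, higher genes numbered 2 with upper quartile scaling, 44 by the DESeq2 Wald test, 4 with no filter, 8 with 3 groups, 33 with quality weights and 15 with length offsets, beside 1 as reported. Lower genes numbered 13 by DESeq2 and 10 with quality weights, beside 0. Upper quartile scaling moved the split at an unadjusted p under 0.05 from 550 higher and 832 lower to 419 and 1076. Without control replicate 3, there were 82 higher genes with no filter and 4 with sums over transcripts, beside 34. Lower genes then numbered 12 by DESeq2, 35 with no filter, 1 with sums, 14 with 3 groups and 18 with quality weights, beside 7. Leaving out control replicate 3 took FICZ from 14 and 0 to 72 and 29, tryptamine from 1 and 0 to 23 and 2, and FICZ minus tryptamine from 0 and 0 to 15 and 2 (16 and 1 in the 6 ligand libraries), and genes without overlap from 318 and 280 to 611 and 617. Samples with the same replicate number deviated together by correlations of -0.058 to 0.114, and samples with different numbers by -0.127 to 0.104. Between FICZ and tryptamine, pairs with the same number had 0.053, 0.04 and 0.114, and the other pairs had -0.127 to 0.086. What a shared number stands for cannot be told from these correlations. With the replicate block there was 1 higher and 0 lower gene with all 9 libraries, and 54 higher and 10 lower without control replicate 3.

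For single genes with all 9 libraries, 641 of the values under alternatives kept their direction and side of the threshold, 128 passed where the reported value did not, and 8 turned sign. Without control replicate 3 these were 588 kept, 148 no longer past the threshold and 1 turned. Cebpb, at -0.03 with all 9 libraries, was 0.091 with the replicate block, 0.691 with quality weights, 0.181 with length offsets, 0.003 without FICZ replicate 2, 0.024 without tryptamine replicate 3 and from -0.324 (without control replicate 1) to 0.733 (without control replicate 3) over the leave-outs. Over the leave-outs with all 9 libraries Ptprz1 ranged from -1.53 (without control replicate 3) to 0.1 (without control replicate 2) and Rn18s from -1.66 to 0.038. With control replicate 3 left out, Rn18s ranged from -2.41 without control replicate 1 to 0.011 without control replicate 2. Leave-out fits with 1 control assume that it varies like the ligand libraries. Beyond the libraries left out, the cause was not tested.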

Other observations

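Of the 41 genes that rose or fell without control replicate 3, 40 could be placed among RefSeq protein-coding genes, and 2 pairs had at most 2 other protein-coding genes between them. Cyp1a1 and Cyp1a2 were next to each other on chromosome 9. Cpox and Cldnd1 lay on chromosome 16 with 1 gene, Gpr15, between them. Gpr15, a G protein-coupled receptor gene, had 6, 5 and 9 counts in control replicates 1 to 3, 17, 27 and 21 with FICZ and 16, 7 and 17 with tryptamine. All ligand libraries of Gpr15 were above control replicates 1 and 2 in CPM, as in 5.03% of all genes. Control replicate 3 was above tryptamine replicate 2, so the arms overlap once it is included. The pooled change of Gpr15 without control replicate 3 was 1.62 ± 0.56 (SE), with an adjusted p of 0.340 by edgeR's quasi-likelihood test. Whether these genes share control was not tested.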
